A study of Oryza sativa with 4 samples.

Results

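The calmodulins and calmodulin-like proteins of rice, a family of calcium sensors, were followed in leaves under 30% CO2. Genes were taken as members where a symbol or synonym, after removal of an Os prefix, was CML followed by a number or CAM followed by a number. The gene table used here holds 29 such genes, 3 calmodulins and 26 calmodulin-like genes. Of the 29, 26 were measured, among 17905 genes that have a probe set. These are all 3 calmodulins and 23 calmodulin-like genes. CML2, CML21 and CML22 had no probe set assigned to them and were not analysed here. Names were the only criterion, so family members that the table lists under a locus identifier alone are not among them.

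Calmodulins are small proteins that bind calcium through helix-loop-helix motifs called EF hands and then change the activity of the enzymes, channels and transcription factors they attach to. Calmodulin-like proteins, in plants numbered as the CML family, share the EF hands but have diverged in the rest of their sequence, and most of them have no known activity other than sensing calcium. In leaves, calcium signals rise within minutes of cold, touch, wounding, salt or a lack of oxygen, and the sensors read them alongside the calcineurin B-like (CBL) proteins with their CIPK partner kinases and the calcium-dependent kinases (CPK or CDPK), which carry EF hands of their own.

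The series compared leaves of rice (Oryza sativa, cultivar Senia) at the second vegetative stage, on Affymetrix arrays, with 2 biological replicates per group and the leaves of 10 plants in each replicate. Plants of the CO2 group were sealed in bags and received CO2 by injection up to 30%, while the controls were left in a normal atmosphere, labelled as 0.04% CO2. Both groups spent 6 h in the dark at 27 °C, so darkness is shared by the controls. The labels do not say if controls were bagged as well.

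The table gives 1 log2 signal per probe set and sample, and a difference of 1 on this scale is a 2-fold change. Sample medians lay between 3.85 and 3.92, and Pearson's r across the 57194 probe sets was 0.989 between the CO2 samples, 0.993 between the controls and 0.951 to 0.968 between groups. The leaf marker rbcS, a small subunit gene of Rubisco, was at 13.63 and 13.64 in the CO2 samples and 13.65 and 13.64 in the controls. Its probe set can bind several transcripts, and the signal was near the highest on each array. The other small subunit gene measured, RBCS1, was dim, at 2.74 and 2.97 in the CO2 samples and 3.19 and 3.30 in the controls. Of 10 measured leaf markers 3 fell and 0 rose in limma's test (6 and 0 at an unadjusted p under 0.05). Their summed log2 signal was 97.3 and 98.5 in the CO2 samples against 107.6 and 105.0 in the controls. By mean, 9 of the 10 were lower and 1 was higher under CO2. The largest difference was that of PORA, at 4.63 and 6.39 in the CO2 samples against 10.04 and 8.21 in the controls, and it did not pass. Over all genes, 13.5% fell and 8.93% rose in limma's test at the adjusted threshold. Of 7 genes taken as root markers 1 fell and 0 rose (14.3% called), with the same counts at an unadjusted p under 0.05. Their summed signal was 29.1 and 29.8 in the CO2 samples against 42.8 and 29.9 in the controls, where the nicotianamine synthase genes NAS1 and NAS2 stood at 11.15 and 10.70 in control replicate 1 and at 4.24 and 4.89 in control replicate 2. The 15 genes of dividing cells (1 fell and 0 rose, or 1 each way unadjusted) summed to 55.2 and 51.1 under CO2 and to 55.0 and 50.01 in controls. The control mean was below the table's median for 12 of these 15, 3 of the 7 root markers and 1 of the 10 leaf markers. The part of these markers in the results that follow was not tested, and in whole leaves fewer cells of a type and less RNA per cell cannot be told apart.

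Under 30% CO2 a few calmodulin-like genes changed strongly in both directions, while 18 of the 23 did not pass the test. The share that passed was 21.7%, against 22.4% of all genes. Of the 3 calmodulins 0 passed, and the difference between calmodulins and calmodulin-like genes was not tested. CML15 and CML31 rose 11.2-fold and 6.55-fold, CML18 rose 1.70-fold, and CML20 and CML1 fell by 3.26 and 1.14 on the log2 scale. Limma's test was called at 0.05 after adjustment over the whole table of 57194 probe sets. By this rule 3 of 26 members were higher (11.5%), 2 were lower (7.69%) and 21 were not called. Over all 17905 genes, 8.93% rose and 13.5% fell by the same rule, and 22.4% were called in either direction against 19.2% of the members. With this adjustment the share of members called was near that of all genes. Calls of at least 2-fold numbered 2 of 26 members higher and 2 of 26 lower (7.69% each), against 6.14% and 8.83% of all genes.

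The number of calls depended on how many features the p-values were adjusted over. Adjusted over 1 probe set per gene instead of all probe sets, 9 members were called higher (34.6%) and 3 lower (11.5%), against 12.4% and 18.8% of all genes. In either direction this made 12 of 26 members (46.2%), against 31.2% of all genes, and the difference in share was not tested. The fold changes are the same in both versions. The genes added on the higher side were CML16, CML3, CML27, CML14, CML7 and CAM3, with limma adjusted p-values of 0.0325, 0.0411, 0.0295, 0.0443, 0.0439 and 0.0469 in that version, and the gene added on the lower side was CML4 (0.0376).

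**Figure D1:**
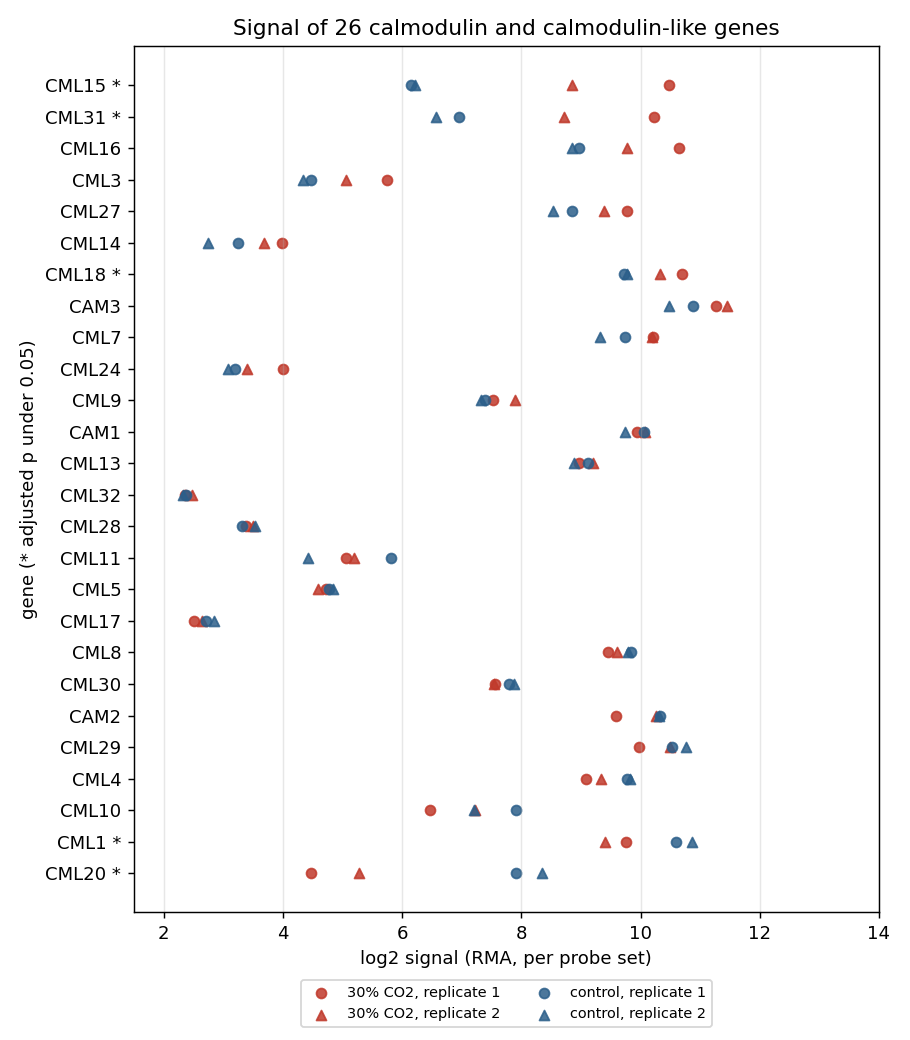
Log2 signal (horizontal axis) of each of the 26 measured genes in the 4 samples, ordered from the largest rise at the top to the largest fall at the bottom. Red points are the 2 samples under 30% CO2, blue points the 2 controls, circles replicate 1, triangles replicate 2, and a star marks genes past an adjusted p of 0.05. CML15 and CML31 lie far to the right of their controls, with replicate 1 beyond replicate 2, and CML20 lies far to the left.

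CML15 (LOC4338633), a calmodulin-like gene, had log2 signals of 10.49 and 8.85 in the CO2 samples, against 6.14 and 6.22 in the controls. The CO2 samples differed from each other by more than the controls did, yet both were well above them. The log2 fold change was 3.49 ± 0.54 (SE, n = 2 per group; limma adjusted p = 0.0224), with a 95% interval from 2.096 to 4.88. In a ranking of all 17905 genes from the largest increase downwards it stood at place 106.

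CML31 (LOC4325408) followed the same course, with 10.23 and 8.72 in the CO2 samples, against 6.95 and 6.57 in the controls. Its log2 fold change was 2.71 ± 0.52 (SE, n = 2 per group; limma adjusted p = 0.0378), with an interval from 1.37 to 4.05. The lower of the CO2 samples was still above the higher control, and the gene stood at place 211 among all genes.

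CML18 (LOC9266860) was already bright in air, with 10.69 and 10.33 in the CO2 samples, against 9.72 and 9.77 in the controls. Groups did not overlap, and the control values were close together. The log2 fold change of 0.77 ± 0.16 (SE, n = 2 per group; limma adjusted p = 0.0498) lies just inside the threshold. Without probe sets that can bind several transcripts, which changes the list that p-values are adjusted over, the limma adjusted p of CML18 was 0.0515.

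Of the members that fell, CML20 (LOC4330639) had the largest change of the family after CML15. Its log2 signal was 4.47 and 5.28 in the CO2 samples, against 7.92 and 8.35 in the controls, a log2 fold change of -3.26 ± 0.32 (SE, n = 2 per group; limma adjusted p = 0.00847). Counted from the largest decrease, CML20 was at place 38 of 17905 genes. Both CO2 values lay more than 2 log2 units under the lower control.

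CML1 (LOC4327351), also listed as OsCAM61, encodes a calmodulin-like protein known for a long C-terminal extension with a site for a lipid anchor. Its signal was 9.76 and 9.40 in the CO2 samples, against 10.59 and 10.86 in the controls. The difference was -1.14 ± 0.19 on the log2 scale (SE, n = 2 per group; limma adjusted p = 0.0253). Here CO2 replicate 2 was the sample further from the controls, unlike for the other 4 members that passed.

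Most calls were lost when a sample was left out. Without CO2 replicate 1, control replicate 1 or control replicate 2, 0 of the 26 members and 0 of the 57194 probe sets passed limma's adjusted threshold, while 8, 7 and 3 members had an unadjusted p under 0.05 with a higher signal and 3, 2 and 3 with a lower one. Without CO2 replicate 2, CML15, CML31 and CML16 passed as higher and CML20 as lower, so that CML16 was gained (limma adjusted p = 0.0458) and CML18 (0.0647) and CML1 (0.102) were lost. The direction of the 5 called genes could not turn in these fits, because their groups do not overlap. Their log2 fold changes ran from 2.67 to 4.30 for CML15, 1.95 to 3.47 for CML31 and 0.59 to 0.95 for CML18. The ranges were -1.33 to -0.96 for CML1 and -3.67 to -2.85 for CML20.

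**Figure D2:**
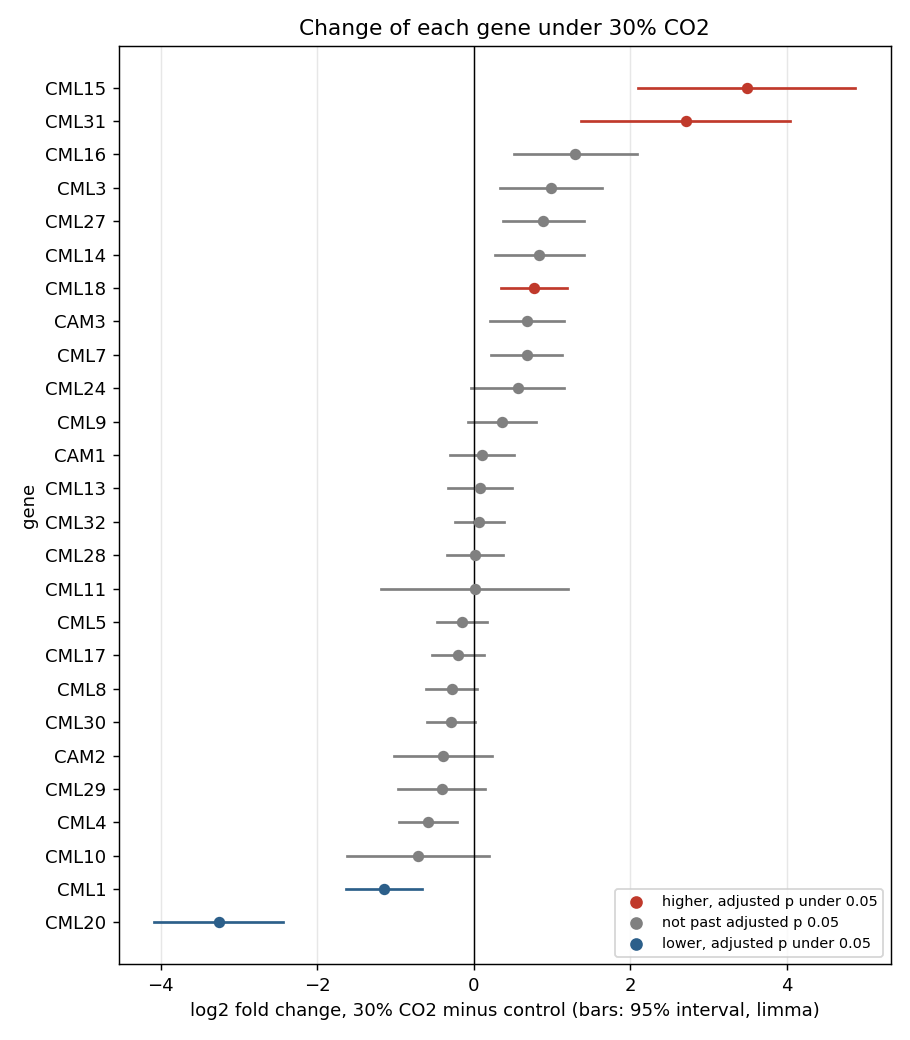
Log2 fold change of each measured gene, 30% CO2 minus control, with limma's 95% interval as a bar. Red genes are higher and blue genes lower at an adjusted p under 0.05, and grey genes did not pass. CML15 at 3.49 and CML20 at -3.26 are at the ends, and the interval of CML11, from -1.18 to 1.21, is wide, and its controls differed from each other.

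The 3 calmodulin genes encode the conserved form of the protein, which in plants acts on glutamate decarboxylase, calcium pumps and transcription factors. CAM1 (LOC4324384) had signals of 9.94 and 10.07 in the CO2 samples, against 10.05 and 9.74 in the controls, so that the groups overlapped. The log2 difference was 0.11, with a 95% interval from -0.30 to 0.52 (limma adjusted p = 0.738). The record of this gene also carries the names CAM1-1, CAM1-2 and CAM1-3, which belong to separate rice loci, and its only probe set cannot be assigned to one of them.

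CAM2 (LOC4339172) had 9.59 and 10.26 in the CO2 samples, against 10.32 and 10.32 in the controls. Only CO2 replicate 1 was clearly lower, and the log2 difference was -0.39, with an interval from -1.02 to 0.23 (limma adjusted p = 0.397). CAM3 (LOC4326903) had 11.27 and 11.45 in the CO2 samples, against 10.88 and 10.48 in the controls. Both CO2 samples of CAM3 were above both controls, at a log2 difference of 0.68 with an interval from 0.21 to 1.15 (limma adjusted p = 0.0881 and unadjusted p = 0.0142, the only calmodulin with an unadjusted p under 0.05). The intervals of all 3 calmodulins leave out a 4-fold change in either direction, and those of CAM1 leave out a 2-fold one. Whether the 3 calmodulins differ from each other in their response was not tested.

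Below the threshold, the members with the largest differences were higher under CO2. CML16 (LOC4325693) had 10.64 and 9.78 in the CO2 samples, against 8.96 and 8.85 in the controls (log2 difference 1.30 ± 0.30, SE; limma adjusted p = 0.0626). CML3 (LOC4351420) had 5.74 and 5.06, against 4.47 and 4.35 in the controls (0.99 ± 0.25; limma adjusted p = 0.0782). CML27 (LOC4332731) had 9.78 and 9.39, against 8.86 and 8.53 in the controls (0.89 ± 0.20; limma adjusted p = 0.057). In each of these genes both CO2 samples were above both controls, and CO2 replicate 1 was the higher of the pair.

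Among the rest, CML14, CML7, CML24 and CML9 had log2 differences of 0.84, 0.68, 0.57 and 0.36, again with both CO2 samples above both controls. CML5, CML17, CML8, CML30, CML29 and CML4 had differences between -0.15 and -0.58, with both CO2 samples below both controls. CML4, reported in rice to increase drought tolerance when overexpressed, was at 9.09 and 9.34 in the CO2 samples, against 9.77 and 9.83 in the controls (limma adjusted p = 0.0717). In CML13, CML32, CML28, CML11 and CML10 the groups overlapped, at differences of 0.09, 0.07, 0.02, 0.01 and -0.71. For CML11 the controls were 5.81 and 4.42, on either side of the CO2 values of 5.06 and 5.19.

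Counted by the position of samples alone, 11 members had both CO2 samples above both controls, 9 had both below and 6 overlapped. Groups that do not overlap were common in the whole table, at 27.7% of genes higher and 39.8% lower, or 67.5% in all, against 76.9% of the members. The median log2 difference of the 26 members was 0.08, and that of all genes was -0.08. By size without sign, the median difference was 0.57 in the members and 0.39 over all genes.

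The CO2 samples were not equally far from the controls. All 3 called members that rose were further from the control mean in CO2 replicate 1, by 4.30 against 2.67 in replicate 2 for CML15, 3.47 against 1.95 for CML31 and 0.95 against 0.59 for CML18. For CML20 the distance was -3.67 in replicate 1 and -2.85 in replicate 2. This was shared with the table, where replicate 1 was the further sample for 67.8% of the 4016 called genes. In 18 of 26 members the SD was larger under CO2 than in controls, against 60.1% of all genes, with median SDs of 0.23 under CO2 and 0.12 in controls.

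**Figure D3:**
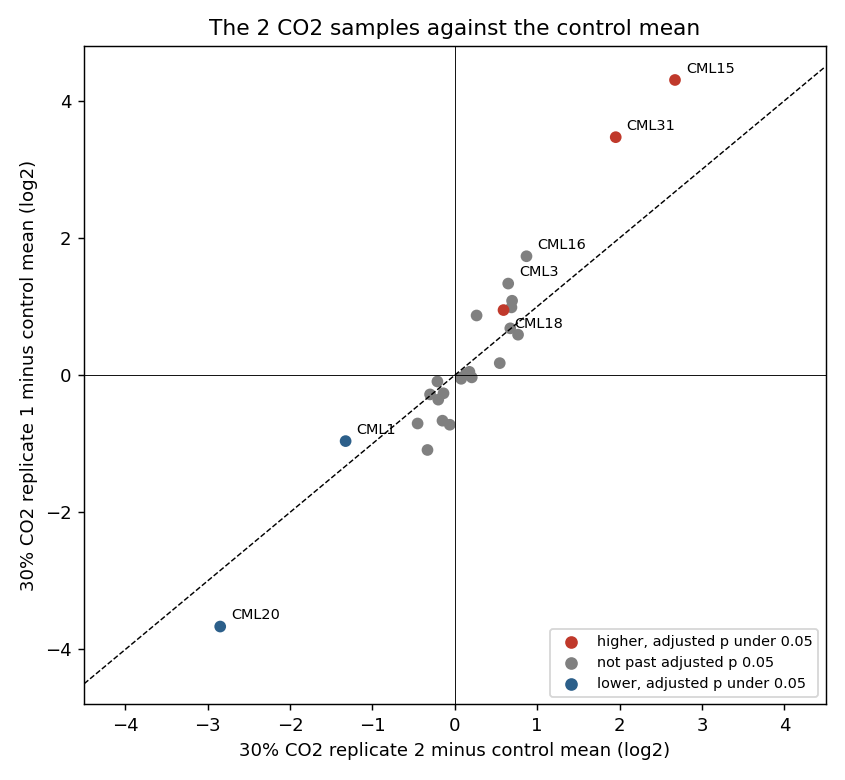
Log2 difference from the control mean in CO2 replicate 1 (vertical axis) and CO2 replicate 2 (horizontal axis), 1 point per gene, with a dashed line where both are equal. Red genes are higher and blue genes lower at an adjusted p under 0.05, and grey genes did not pass. CML15, CML31 and CML18 lie above the line and CML20 below it, so replicate 1 was further from the controls for these genes, while CML1 was further in replicate 2.

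Of the 26 measured members 22 have 1 probe set and 4 have several. The 3 probe sets of CML4 gave log2 differences of -0.58, -0.57 and -0.71, and none passed alone. The third of them was dim, at 2.33 to 3.32. Their mean, fitted as 1 value per gene, gave -0.62 and did pass (limma adjusted p = 0.0371). For CML5, also listed as OsCAM-2, the brighter set gave -0.15 (limma adjusted p = 0.523) and the other, which can bind several transcripts, gave -0.87 (limma adjusted p = 0.0441), so the sets disagree. The second sets of CML10 and CML27 were dim, at 2.20 to 2.42 and 2.27 to 2.72, and gave 0.18 and 0.25, against -0.71 and 0.89 on the brighter sets. CML13 and CML4 are represented by sets that can bind several transcripts. For 5 members, CML14, CML17, CML24, CML28 and CML32, the mean over the samples was below the median of the table, and the table gives no detection calls.

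One pair of members are neighbours in the gene table, CML9 and CAM2, with no protein-coding gene listed between them. Under CO2 their log2 differences had opposite signs, 0.36 for CML9 and -0.39 for CAM2. Neither passed the test.

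Other parts of calcium signalling were counted in lists of names. Over these lists 65 genes were measured, with 14 higher, 13 lower and 38 not past the threshold. The share called was 41.5%, against 19.2% in the calmodulin family and 22.4% of all genes, and the difference between the lists was not tested. This contrast depended on the adjustment. Adjusted over 1 probe set per gene, 17 of the 65 were higher and 15 lower, against 9 and 3 of the 26 calmodulin family members. At an unadjusted limma p under 0.05 there were 33 of the 65, against 9 members higher and 3 lower. Without CO2 replicate 1 or either control, 0 of the 65 passed limma's adjusted threshold (34, 30 and 29 had an unadjusted p under 0.05), and 6 were higher and 6 lower without CO2 replicate 2. Their median log2 difference was 0.05. The lists of annexins and of calmodulin-binding effectors (CAMTA factors, glutamate decarboxylases and IQD proteins) had no measured gene by name and were not analysed here.

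The CBL proteins are calcium sensors that dock onto CIPK kinases. Among 7 measured CBL genes, 3 were higher, 3 were lower and 1 was not called (85.7% called, against 22.4% of all genes). CBL4 rose by 1.65 and CBL10 by 1.56 on the log2 scale, while CBL9 and CBL2 (LOC4352701) fell by 1.62 and 1.31. Among 24 CIPK genes, 8 were higher, 4 were lower and 12 were not called (50% called). The differences of these shares from that of all genes were not tested. CIPK2 rose by 3.29 and CIPK16 by 2.88, and CIPK10 and CIPK5 fell by 3.80 and 2.23. The probe sets of CBL9, CIPK2 and CIPK16 can bind several transcripts.

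Calcium-dependent kinases, which join a kinase domain to EF hands in 1 protein, had 3 of 20 genes higher, 1 lower and 16 not past the threshold. The share called was 20%, near the 22.4% of all genes. CPK13 rose by 1.09. CPK21 had 4.09 and 3.52 in the CO2 samples, against 2.56 and 2.56 in the controls, a rise whose size is uncertain because the controls lay at the 19.8th percentile of the table and were not shown to be above background. CDPK5 (LOC4343002, also named CPK18) fell, on a set not specific to 1 transcript, to 4.77 and 5.59 in the CO2 samples, against 7.35 and 7.21 in the controls. CCAMK, a kinase that calcium and calmodulin activate and that is best known from root symbiosis, had 5.79 and 6.37 in the CO2 samples, against 7.10 and 7.11 in the controls, and fell by 1.03 (limma adjusted p = 0.0488). CAMK1, also listed as OsCBK and grouped with CCAMK by its name alone, was at a log2 difference of 0.33 and did not pass. RBOHB, an NADPH oxidase with EF hands, fell by 2.46.

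Among genes for calcium transport, 1 of 2 channel genes was lower and 0 were higher (50% called, against 22.4% of all genes). TPC1, a calcium-permeable channel, fell by 1.12, also on a set not specific to 1 transcript, and GLR3.1, a glutamate receptor-like channel, was at -0.27 and did not pass. Of 9 genes for calcium pumps and exchangers 0 were higher and 2 lower in limma's test at the adjusted threshold, a share of 22.2% against 22.4% of all genes. CAX1b, a calcium exchanger, fell by 1.95 and the calcium pump gene ACA8 by 0.96. ACA7, named after its values were seen as the 1 gene of this list that was higher at an unadjusted p under 0.05, had 5.71 and 4.96 in the CO2 samples, against 4.16 and 4.04 in the controls (log2 difference 1.23 ± 0.27, SE; limma adjusted p = 0.0541).

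**Figure D4:**
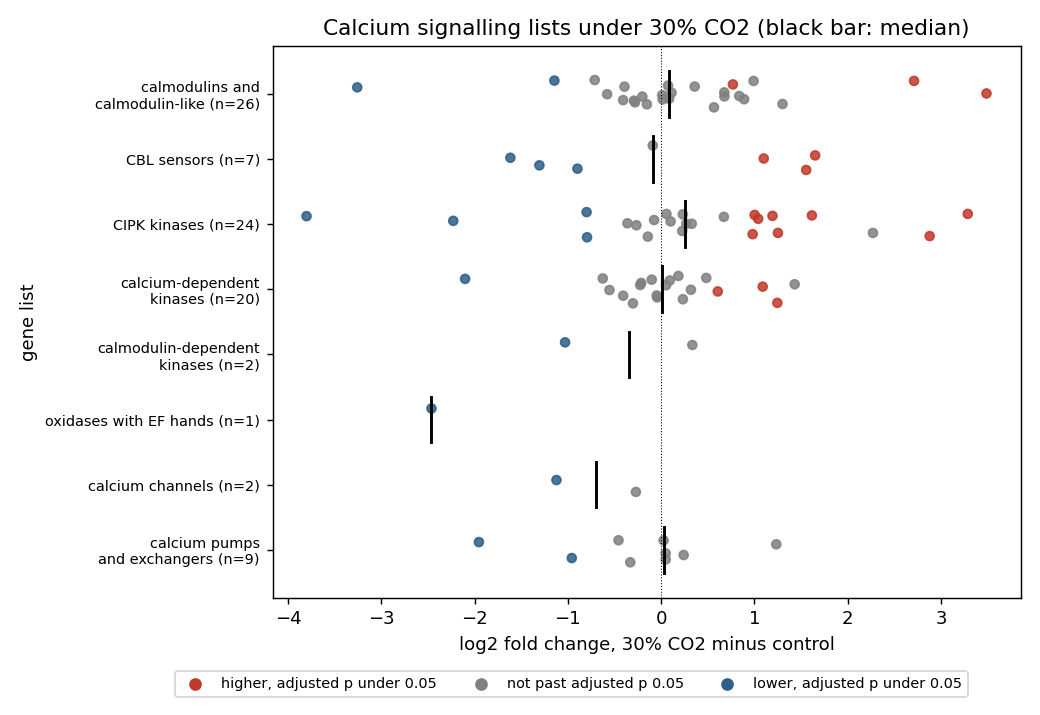
Log2 fold change, 30% CO2 minus control, of the genes in each calcium signalling list, 1 point per gene with a black bar at the list's median. Red genes are higher and blue genes lower at an adjusted p under 0.05, and grey genes did not pass. The calmodulin family reaches from -3.26 to 3.49 around a median of 0.08, and the CIPK kinases from -3.80 to 3.29 around 0.25.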

How the data were processed

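The values are log2 signals per probe set as the authors deposited them, 1 column per array, and RMA and limma are named without versions, per the submitters' processing notes. No rescaling was applied. The array annotation gave 1 gene to 22436 of 57194 probe sets and several to 95, whose genes are not used, while 34663 are without a name in it. Genes were named through a rice gene table (assembly ASM3414082v1, names and neighbours only) and each was represented by its brightest probe set over the 4 samples. A two-sided linear model (limma 3.58.1, R 4.3.3, functions lmFit and eBayes) had 2 residual and 2.85 prior degrees of freedom. Calls were made at 0.05 after Benjamini-Hochberg adjustment over the whole table. The procedure was tested on simulated data. Python 3.11.15 and matplotlib 3.10.9 drew the figures.

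The members, the lists and the tests were chosen with earlier results of these data known. Every member is named, with full values for those past the threshold, for the calmodulins and for the 3 largest differences not past it, and up to 2 called genes per direction from each other list. The alternatives were leaving out each sample, the replicate number as a block, quantile normalization, a filter on dim probe sets, the mean of a gene's probe sets, no probe sets that can bind several transcripts, a variance trend and adjustment over genes. The number of arrays limits the precision, and signal over background is not given. Protein and promoter sequences of the members were not used here, so the planned description of EF hands and promoter motifs was not made.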

Additional observations from a re-analysis of the deposited data

How the results depend on the processing

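Counts of calls moved between settings. The blocks, the dim filter, the variance trend and adjustment over genes leave fold changes as they are by design, so the 2 kinds of movement are not compared. Leaving out 1 sample (the lone sample of a group is then assumed to vary like the other group) gave 0 to 3 members higher, 0 to 1 lower, 0 to 6 pathway genes higher, 0 to 6 lower and 0 to 2477 of the 57194 probe sets called, against 3, 2, 14, 13 and 6583 with all samples. Each of these fits has 3 samples, and the fit without CO2 replicate 2 was the one with calls. The cause of that difference was not tested. With the replicate number as a block, 0 members were higher and 1 lower (2.85% and 2.99% of all genes; 10 and 3 members at an unadjusted p under 0.05 in limma), with 5 and 3 pathway genes and 1691 probe sets. Whether same-numbered samples were handled together is not known from their numbers. Their deviations correlated at -0.10 across probe sets, which cannot settle it with 1 replicate difference per group. With the crossed pairing, chosen after seeing the data, 1 member was higher, 9 and 6 pathway genes were called and 3478 probe sets. Quantile normalization and the filter on dim probe sets, which left 21 members, each gave 5 members higher, and adjustment over 1 probe set per gene gave 9. The cause was not tested for quantile normalization, and the other 2 settings adjust over a selected part of the probe sets. Signs turned in 4 members near 0. Over the fits that leave out 1 sample, CAM1 ran from -0.042 to 0.27, CML11 from -0.68 to 0.70, CML13 from -0.033 to 0.21 and CML28 from -0.091 to 0.12, and CML28 was at -0.031 after quantile normalization. In the other alternatives the counts of members stayed within 1.5 times.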
